A study of Homo sapiens with 4 samples.

Results

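In HepG2 cells depleted of METTL3, 275 genes had 2 or more introns whose read level was listed as changed although the gene itself was not listed as changed. These genes held 646 of the 2672 introns in the authors' deposited intron table, which covers 1898 genes or merged loci. A gene was included if its introns carried 1 Ensembl identifier, if that identifier was not a row of the authors' gene table, and if at least 2 of its introns were listed. HepG2 is an established human hepatoma line. One group received an siRNA against METTL3 and the other a scrambled siRNA, both were transfected again after 48 and 96 hours, and both were collected on day 7. Each group had 2 poly(A) RNA libraries, with nothing in the labels on how their cultures were kept apart, so p-values measure only the spread between these samples. The intron and isoform tables give 1 value per group and no replicate values. The exon table alone gives each library.

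Introns are cut out of a transcript by the spliceosome, and most of their RNA is lost soon after transcription. Reads within an intron of poly(A) RNA can come from a retained intron, from a transcript not yet spliced, from an alternative exon or end that the annotation places inside an intron, or from another gene that overlaps it. METTL3 is the catalytic subunit of the nuclear complex that places N6-methyladenosine on RNA, a mark read by proteins that act in splicing, export, translation and decay. Introns of 1 gene share its promoter and much of its transcript, so they are not replicates of each other.

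Some of these genes also had listed isoforms. Coding sequence that sets a listed isoform apart from another annotated form is shown for those with large differences, chosen after their values were seen. Of the forms in brackets, RAC1-201, ANTXR1-201 and MSI2-201 were not listed themselves. Each line gives the start of a coding block of the named isoform that overlaps no exon of the isoform in brackets. Capitals mark bases of that block and lower case the coding bases beside it. The sequences are from GENCODE release 29 on GRCh38, whereas the authors used hg18, and the authors' intron and exon numbers were not mapped to them.
MYL6-202 (not in MYL6-201): ctatgaagCGTTTGTGAGGCATATCCTGTC
RAC1-202 (not in RAC1-201): cgcaaacaGTTGGAGAAACGTACGGTAAGG
FOXM1-201, upstream block (not in FOXM1-203): tgtttaagCCACTGGACCCAGGGTCTCCAC
FOXM1-201, downstream block (not in FOXM1-203): cccccaagGTTTTTGGGGAACAGGTGGTGT
RREB1-204 (not in RREB1-202): acacactgGTCAGAAACCCTTCCCTTGTCA
ANTXR1-203 (not in ANTXR1-201): cacactgtAGCCTCCACAAAATTGCATCAG
MSI2-202 (not in MSI2-201): gttcccagACTATTTGCCGGTTTCACAAGA
SPTAN1-203 (not in SPTAN1-201): gacaatcaGACACGCATAACTAAGGAGGCC

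The MYL6 block has 26 coding bases at chr12:56160626-56160651 on the plus strand. The RAC1 block, the insertion that defines the splice form RAC1b, has 57 bases at chr7:6398662-6398718 on the plus strand. Both FOXM1 blocks lie on the minus strand, with 45 bases at chr12:2865355-2865399 and 114 bases at chr12:2861299-2861412. In RREB1 the block has 165 bases at chr6:7240438-7240602, in ANTXR1 48 bases at chr2:69145326-69145373, in MSI2 38 bases at chr17:57631791-57631828 and in SPTAN1 60 bases at chr9:128592983-128593042, all on the plus strand. SPTAN1-203 has a second block absent from SPTAN1-201, with 15 bases at chr9:128609651-128609665, whose sequence is not shown. The blocks of RAC1, FOXM1, RREB1 and SPTAN1 keep the reading frame by length. Those of MYL6, ANTXR1 and MSI2 are the last coding blocks of their isoforms.

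METTL3 itself fell from an authors' mean of 955 to 241 normalized counts, 3.96-fold in the authors' deposited table. None of the 8 hepatocyte markers looked for was listed as changed, and the tables give no level for an unlisted gene, so the labelled cell type could not be checked by level. Of 4 fibroblast markers, COL3A1 (2531 to 880.3), DCN (673 to 108) and LUM (8006 to 1627) were listed with lower authors' means after METTL3 siRNA, and COL1A1 was not listed. The endothelial marker CDH5 (161 to 1143), the blood marker CD14 (4.65 to 24.8) and the neural marker SYP (27.0 to 69.2) were listed as higher, 1 of 4, 1 of 3 and 1 of 3 markers of their lists. Their part in the intron results was not tested. In these bulk libraries fewer cells of a type and less RNA per cell cannot be told apart.

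Most of the introns had fewer reads after METTL3 depletion. Of the 646, 461 (71.4%) were lower and 185 (28.6%) were higher by the authors' call, against 71.7% lower and 28.3% higher over all 2672 listed introns. After subtraction of the median log2 fold change of all listed introns (-1.36), called recentring here, 63 lower and 185 higher introns still differed at least 2-fold. That median comes only from introns already called changed, so it does not measure unchanged introns. By construction the shift can take away lower introns but no higher ones. The lower introns had a median authors' mean of 173 normalized counts in the control and 63.9 after METTL3 siRNA, with a median log2 fold change of -1.50 in the authors' deposited table. The higher introns went from a median of 54.0 to 169, with a median log2 fold change of 1.75 in that authors' deposited table. Over all listed introns those medians were -1.60 and 1.76. Intron values were not divided by length, so levels of different introns are not compared.

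**Figure D1:**
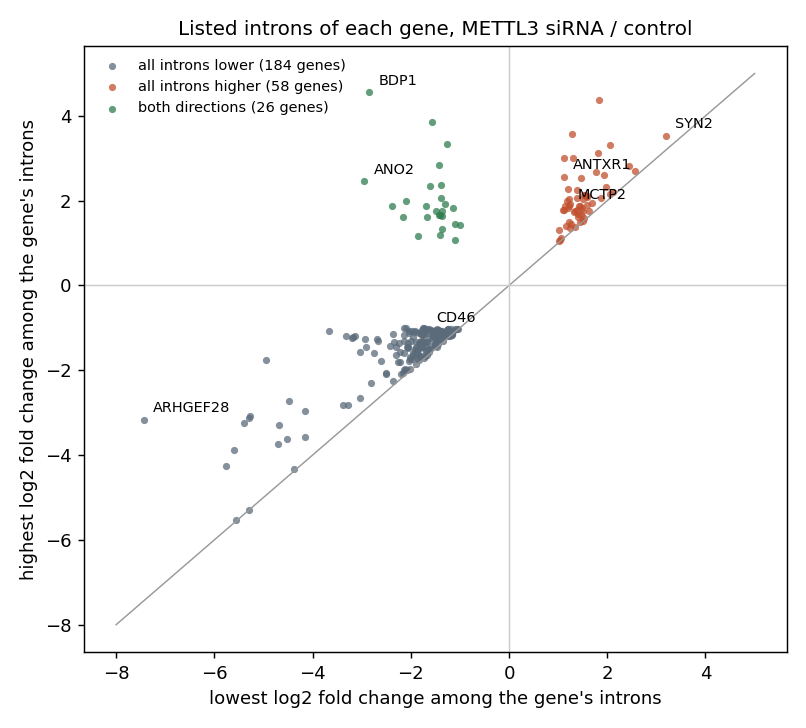
Lowest against highest log2 fold change (METTL3 siRNA over control) among the listed introns of each gene, 1 point a gene. The 184 genes with every intron lower lie at the lower left, genes with every intron higher at the upper right, and genes with introns in both directions at the upper left; 7 genes with an intron at 0 in the control are not drawn.

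Introns of 1 gene mostly moved the same way. In 248 of the 275 genes (90.2%) every listed intron had the same direction, lower in 184 genes and higher in 64, while 27 genes held introns of both directions. In the other classes of the same table, 170 of 173 genes (98.3%) that were also in the gene table and had 2 or more introns were of 1 direction, as were 25 of 26 such merged loci, and the differences between classes were not tested. After recentring on the median of all listed introns, 64.0% of the 275 genes kept 1 direction. By number of listed introns, 20 of 206 genes with 2 introns, 6 of 53 with 3, 1 of 3 with 6 and none of the 13 genes with 4, 5 or 7 held both directions. Within genes of 1 direction the log2 fold changes lay close together, with a median range of 0.37 and a range under 1 in 207 of 242 genes. Their median within-gene SD was 0.24, beside an SD of 0.93 between the medians of genes whose introns were all lower and 0.47 between those whose introns were all higher. These are unlike measures. The first is a median of SDs, mostly of 2 introns, in genes kept because their introns agree. The 0.93 includes genes with almost no reads left, such as ARHGEF28 with a median of -7.00. Since only changes of at least 2-fold are listed, these spreads leave out any intron that moved less. In 134 genes at least 2 of the listed introns had consecutive numbers.

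By GENCODE release 29, 253 of the 275 genes are protein coding, 4 are transcribed unprocessed pseudogenes and 15 identifiers are not in that release. Of the 260 found there, 169 (65.0%) overlap a gene on the opposite strand, against 934 of 1462 (63.9%) of the other single genes in the intron table. Such an overlap was present for 21 of 26 genes with introns in both directions (80.8%) and for 148 of 234 genes of 1 direction (63.2%). No source used here states whether counting used strand, and without strand the reads of both genes of a pair cannot be told apart. Genes on the same strand overlap some members too, and there strand would not help. Among genes named below these are ZBED6 in ZC3H11A, SNORD92, SNORD53 and SNORD53B in WDR43, BACE2-IT1 in BACE2 and CPS1-IT1 in CPS1. CDCA4P4 overlaps CD46 and AC135626.1 overlaps MCTP2 in the same way. The listed introns were not mapped to such overlaps.

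CD46, the membrane cofactor that protects host cells from complement, fell in all of its 6 listed introns. The gene (ENSG00000117335) lies on the plus strand at chr1:207752057-207795513 in GRCh38. Its authors' means went from 494 to 174 normalized counts in intron 4, 547 to 209 in intron 7 and 186 to 63.4 in intron 8. Intron 9 went from 2595 to 817, intron 13 from 1225 to 599.8 and intron 14 from 1179 to 556. The log2 fold changes in the authors' deposited table ran from -1.67 in intron 9 (authors' adjusted p = 3.63e-34) to -1.03 in intron 13 (authors' adjusted p = 3.80e-13), a range of 0.64. The 4 listed introns up to intron 9 had lower log2 fold changes than introns 13 and 14, with no replicate error to set beside that order. No isoform or exon of CD46 was listed.

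C4BPB, the beta chain of the complement inhibitor C4b-binding protein, was the other complement gene, and its 3 introns were lower as well. Its intron 4 went from 10025 to 2646 normalized counts by the authors' means, intron 1 from 159 to 64.9 and intron 6 from 261 to 121. All 9 introns of the 2 complement genes were lower, beside 71.7% of all listed introns, and 4 changed sign on recentring.

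MCTP2, which carries several calcium-binding C2 domains and membrane-spanning segments, had the most listed introns, 7, and all rose. The gene (ENSG00000140563) lies on the plus strand at chr15:94231538-94483952 in GRCh38. Its authors' means went from 41.4 to 124 normalized counts in intron 12, 30.03 to 109 in intron 14 and 142 to 357 in intron 18. In the block of consecutive introns they went from 69.96 to 255 in intron 20, 131 to 353 in intron 21, 446 to 1034 in intron 22 and 68.05 to 229 in intron 23. The log2 fold changes in the authors' deposited table ran from 1.21 in intron 22 (authors' adjusted p = 2.44e-12) to 1.87 in intron 14 (authors' adjusted p = 0.00480), a range of 0.65. No isoform or exon of MCTP2 was listed. Its relative MCTP1 had 3 listed introns, all lower, from 421 to 204 in intron 1, 737 to 263 in intron 2 and 1953 to 789 in intron 3 by the authors' means. The C2-domain list, of these 2 genes, thus held 7 higher and 3 lower introns, of which 2 lower ones changed sign on recentring.

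**Figure D2:**
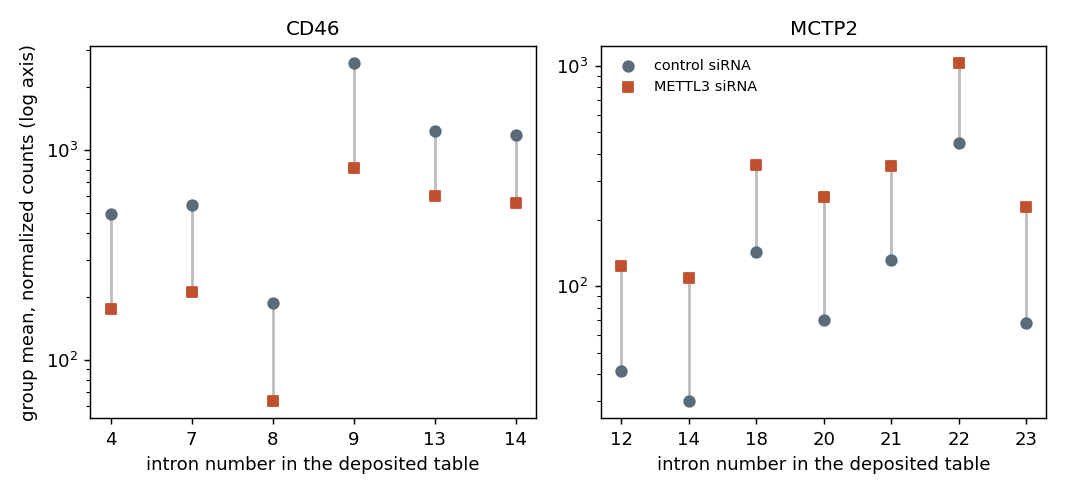
Authors' group means (normalized counts, log axis) of every listed intron of CD46 and MCTP2, by intron number. Circles are the control and squares the METTL3 siRNA group; all 6 CD46 introns are lower and all 7 MCTP2 introns higher after METTL3 siRNA, with no replicate values.

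The 10 genes with most introns after CD46 and MCTP2 follow. Ties at 4 introns were settled by the smallest authors' adjusted p, which left out CTTNBP2, RYR3, SCYL3 and TMEM106C, all lower in 4 introns. Of the 10 genes, 3 rose in every listed intron. ANTXR1, a receptor for anthrax toxin that also binds collagen, rose in 5 introns. Its authors' means went from 27.1 to 106 in intron 3, 44.3 to 189 in intron 10, 201 to 1075 in intron 12, 91.3 to 540.4 in intron 13 and 201 to 437 in intron 22. Its increase was uneven, since the log2 fold change in the authors' deposited table was 2.57 in intron 13 and 1.12 in intron 22. BACE2, an aspartyl protease related to the enzyme that cleaves the amyloid precursor, rose in introns 1 (113 to 287), 5 (1769 to 5966), 6 (123 to 334) and 12 (146 to 476) by the authors' means. RMC1, a regulator of the guanine exchange complex that acts on late endosomes, rose in introns 10 (161 to 452), 12 (69.7 to 214), 14 (67.4 to 224) and 19 (30.3 to 107). RMC1 overlaps NPC1, the lysosomal cholesterol transporter, on the opposite strand. NPC1 also belonged to the set, with authors' means of 36.1 to 150.2 in intron 24 and 23.5 to 86.05 in intron 25, and the values of this pair are uncertain for that reason.

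Lower in every listed intron were CPS1, MICA, HNRNPH1, PSMA3, PDE4DIP and ENSG00000215107. CPS1, the mitochondrial enzyme that begins the urea cycle, fell in introns 4 (200.2 to 88.5), 5 (159 to 45.9), 27 (879 to 309), 30 (1082 to 518) and 34 (823 to 378) by the authors' means. MICA, a stress-induced ligand of the natural killer cell receptor NKG2D, fell in introns 1 (172 to 54.2), 2 (152 to 52.9), 3 (1026 to 352) and 4 (436 to 173). PSMA3, an alpha subunit of the proteasome core, fell in introns 7 (1255 to 444), 8 (815 to 359), 9 (198 to 89.2) and 10 (172 to 73.3). Both MICA and PSMA3 were thus lower across a run of 4 consecutive introns. PDE4DIP, a centrosome and Golgi scaffold, fell in introns 39 (499.6 to 205), 45 (216 to 88.6), 46 (168 to 80.2) and 47 (57.1 to 13.9) by the authors' means. ENSG00000215107, which the naming table does not pair with a symbol, fell in 6 introns, with authors' means between 229 to 82.6 in intron 3 and 2100.2 to 902 in intron 8.

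ANO2, a calcium-activated chloride channel, was the single gene of this group with both directions. Its 5 listed introns up to intron 16 rose, with authors' means of 17.4 to 96.4 in intron 1, 63.2 to 229.8 in intron 2, 146 to 499.7 in intron 5, 23.2 to 89.9 in intron 6 and 29.3 to 95.1 in intron 16. Intron 22 fell from 88.6 to 11.5, a log2 fold change of -2.94 in the authors' deposited table (authors' adjusted p = 1.37e-06).

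**Figure D3:**
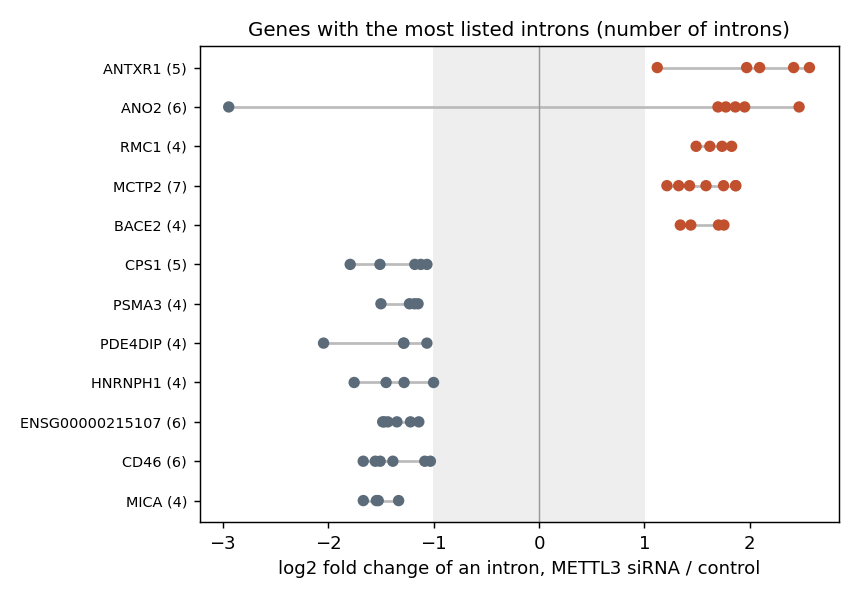
Log2 fold change (METTL3 siRNA over control, authors' deposited table) of each listed intron in the 12 genes with most introns (ties at 4 introns settled by the smallest authors' adjusted p), 1 point an intron, the number of introns in brackets. Grey shading marks changes under 2-fold, which are not listed; introns of a gene lie together except in ANO2, where 5 are higher and 1 is lower.

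Genes with the lowest medians had few or almost no intron reads left after METTL3 siRNA. In ARHGEF28, a guanine nucleotide exchange factor, the authors' means went from 211 to 1.22 normalized counts in intron 5, 53.6 to 0.420 in intron 24 and 25.97 to 2.90 in intron 18. Intron 5 of ARHGEF28 had a log2 fold change of -7.43 in the authors' deposited table (authors' adjusted p = 1.24e-37), and the 4.27 span of its introns was the widest among genes of 1 direction with no intron at 0. PTPRT, a receptor tyrosine phosphatase, went from 22.7 to 0.420 in intron 16 and 23.2 to 1.22 in intron 17. STXBP5L, a syntaxin-binding protein, went from 30.9 to 3.28 in intron 10 and 34.3 to 0.820 in intron 11. The control means of the PTPRT and STXBP5L introns were under 50 normalized counts, as were those of NCAN (17.2 to 0.820 in intron 8), TRHDE (21.4 to 0.820 in intron 5), C2CD6 (20.4 to 0.420 in intron 13) and ENSG00000214776 (19.8 to 0.420 in intron 2). In ABCC12, an ABC transporter, introns 12 and 16 carried the same authors' means, 16.4 to 0.420, so they may not be separate measurements.

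The highest medians were ranked only among genes with no intron at 0 in the control. Of these, SYN2, the synaptic vesicle protein synapsin II, went from 5.80 to 67.2 in intron 5 and 5.82 to 53.3 in intron 6 by the authors' means. WDR43, a ribosome biogenesis factor, went from 18.9 to 78.9 in intron 2 and 12.6 to 126 in intron 3. FDXR, the mitochondrial ferredoxin reductase, went from 8.72 to 56.7 in intron 2 and 18.9 to 112 in intron 10. EXOC3, of the exocyst, went from 6.78 to 47.6 in intron 2 and 15.98 to 86.4 in intron 3, ARFGAP1, which acts on a GTPase of the Golgi, from 8.72 to 55.3 in intron 7 and 55.5 to 189 in intron 8, and the Golgi SNARE gene GOSR2 from 30.03 to 182 in intron 4 and 100.01 to 379.98 in intron 5. COX7A2, a subunit of cytochrome c oxidase, went from 45.5 to 212 in intron 4, and ERICH1 from 1.94 to 40.4 in intron 5. In all, 9 introns were listed at 0 in the control, among them both of RADX (0 to 23.2 and 0 to 23.2) and both of L3MBTL3 (0 to 23.6 and 0 to 24.02), for which no fold is given. The RADX introns, like those of ABCC12, carried the same values.

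Gene groups are described by 16 lists that match symbols by fixed patterns, so a list does not hold every gene of its class. Each count is read beside the 71.7% of all listed introns that were lower, and none was tested against it. All 15 introns of 7 SR proteins and SR-related factors were lower, of which 7 changed sign on recentring. Among these regulators of exon choice, TRA2A went from 2778 to 890.2 in intron 7 and 58.9 to 11.9 in intron 5 by the authors' means, SRSF6 from 574 to 189 in intron 3 and 253 to 121 in intron 2, and SRRM2 from 998 to 447 in intron 13 and 533 to 243 in intron 9. SRSF3, SRSF7, SRSF10 and the kinase CLK4, which phosphorylates SR proteins, made up the list. Of 11 introns of 4 hnRNP and related genes, 10 were lower and 1 was higher, and 5 lower ones changed sign on recentring. HNRNPH1, which binds G-rich RNA, fell in introns 5 (327 to 164), 9 (4179.8 to 1721), 10 (7181 to 2627) and 12 (3406 to 1010.02) by the authors' means. MBNL3, of the muscleblind splicing regulators, fell in introns 9 (142 to 45.9) and 10 (629 to 267).

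Spliceosome components and RNA helicases gave 6 lower introns in 3 genes, 3 of which changed sign on recentring. The helicase gene DDX17 went from 9036 to 2753 in intron 3 (log2 fold change -1.71 in the authors' deposited table, authors' adjusted p = 1.67e-119) and 611 to 194 in intron 2. SNRNP70, the 70K protein of the U1 particle, went from 445 to 177 in intron 8 and 90.8 to 25.8 in intron 7, and PRPF3, of the U4/U6 particle, from 217 to 87.7 in intron 12. ZC3H11A, a zinc finger protein of mRNA export, went from 5017 to 1683 in intron 2, and ENSG00000172660 from 4246 to 1912 in intron 7. ZC3H11A overlaps ZBED6 on the same strand, so its values are uncertain. Genes of RNA binding and processing outside these lists, picked after their values were seen, went both ways. FUBP3 (3 introns), CPEB4, MSI2, PCID2 and CENATAC (2 each) were higher in all listed introns. EWSR1 and NONO (3 each) and CPSF7, PNISR, ARGLU1, CHTOP and LENG8 (2 each) were lower in all. CPSF6 and INTS7 had 1 higher and 1 lower intron each. The medians of NONO, ARGLU1, CHTOP and CPSF6 change sign on recentring. This pick does not cover the class, so its split is no measure of the class. None of the writers, erasers and readers of N6-methyladenosine was in the set, and neither were the liver plasma proteins searched.

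The list of zinc finger factors, matched by family symbols such as ZNF and ZBTB, held 14 lower and 1 higher intron in 7 genes, beside 71.7% lower over all listed introns, with 4 sign changes on recentring. RREB1, a zinc finger factor that these symbols do not match, rose in 2 introns. ZBTB44 fell in introns 2 (418 to 166), 3 (469 to 171) and 4 (406 to 194) and ZSCAN9 in intron 3 (679 to 242). All 9 introns of the 4 genes matched as DNA replication and repair were lower, beside the same 71.7%, and 1 changed sign on recentring. Outside the list, CDC45, RRM1 and TOPBP1 (2 introns each) and DONSON (3) were lower in all listed introns, whereas both introns of RADX, a replication fork protein, were higher. CDC45, RRM1, TOPBP1 and DONSON each held an intron that changes sign on recentring, as does the RRM1 median. Among the matched genes, the ligase gene LIG1 went from 256 to 61.2 in intron 4 by the authors' means and FANCM, the Fanconi anemia translocase, from 144 to 43.3 in intron 20. The chromatin list held 1 gene, BAZ2B, whose introns 1 (370.3 to 125) and 34 (677 to 181) fell and kept their sign on recentring.

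The list of kinases and phosphatases held 7 lower and 3 higher introns in 5 genes, beside 71.7% lower over all listed introns, and none of these changed sign on recentring. Of the 3 higher introns 2 are of MAPKAP1, which is matched by its letters alone and is neither a kinase nor a phosphatase. Kinase and kinase-like genes that the patterns of the list do not match were mostly lower: CLK4, MARK3, PASK and PLK4 in 2 introns each, ROR2 in 3 and SCYL3 in 4, while ALPK2 had 1 higher and 1 lower intron. Of these, MARK3, PASK, ROR2 and SCYL3 each held 1 intron that changes sign on recentring. In the list MAPK10, the neuronal stress kinase JNK3, went from 48.8 to 1.24 in intron 14 and 57.8 to 6.58 in intron 15 by the authors' means. Matrix and adhesion genes held 5 lower and 1 higher intron in 3 genes, with no sign change on recentring. CNTNAP3B went from 70.2 to 12.3 in intron 23, and NRXN3, of the presynaptic neurexins, from 100.01 to 34.9 in intron 24 and 114 to 42.6 in intron 25.

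The list of solute carriers, ABC transporters and channels held 18 higher and 10 lower introns in 11 genes, beside 28.3% higher over all listed introns, with 1 sign change on recentring. Channel genes that its patterns do not match were lower in all listed introns, RYR3 in 4, PIEZO1 in 3 and ITPR1 and GLRB in 2 each. With them the balance turns to lower introns, but only on the deposited scale. On recentring the RYR3 median changes sign, as do an intron of PIEZO1 (deposited log2 fold change -1.19) and an intron of ITPR1 (-1.20). In the list CACNA2D3, a calcium channel subunit, fell in introns 12 (436 to 118) and 41 (74.3 to 25.7) by the authors' means. Small GTPases and their regulators held 11 lower and 10 higher introns in 9 genes, with 4 sign changes on recentring. RAB31, a GTPase of endosomal transport, rose in introns 3 (81.1 to 185) and 5 (335 to 1188), whereas the scaffold IQGAP3 fell in introns 12 (242 to 58.4) and 30 (146 to 52.8). Ubiquitin genes held 11 lower and 8 higher introns in 7 genes, with 2 sign changes on recentring. CUL4A, the scaffold of a ubiquitin ligase, rose in introns 4 (515 to 1583), 5 (77.02 to 266) and 6 (390.2 to 1022) by the authors' means, and HERC2P9, a pseudogene of the ligase HERC2, fell in introns 17 (341 to 93.6), 23 (210.5 to 66.5) and 27 (1064 to 368). CUL4A overlaps PCID2 on the opposite strand and HERC2P9 resembles HERC2, so their values are uncertain. Motor and cytoskeleton genes held 5 lower and 4 higher introns in 4 genes, with 2 sign changes on recentring; MYO16 fell in introns 38 (90.8 to 20.4), 39 (35.8 to 5.34) and 40 (1165 to 389), and TUBGCP3, of the gamma-tubulin complex, rose in introns 12 (197 to 522) and 13 (134 to 299).

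Among the 27 genes with both directions, the 26 with no intron at 0 had a median within-gene range of 3.27 on the log2 scale. BDP1, a subunit of the RNA polymerase III initiation factor, went from 1.21 to 28.6 in intron 9 and 41.2 to 5.74 in intron 32 by the authors' means. ALG13, of protein glycosylation, went from 4.84 to 70.1 in intron 12 and 77.00 to 25.8 in intron 3. PCNX2 went from 3.63 to 36.97 in intron 28 and 260.05 to 108 in intron 10, and MEI1, a meiosis gene, from 0 to 26.4 in intron 20 and 32.6 to 4.14 in intron 4. In these 4 genes the higher intron had under 5 normalized counts in the control. Others had appreciable reads on both sides. PLCB4, a phospholipase C, fell in introns 2 (2159 to 416) and 21 (326 to 78.3) and rose in intron 8 (31.7 to 116). GOLPH3, a Golgi phosphoprotein, fell in intron 1 (286 to 109.7) and rose in introns 4 (61.3 to 318) and 5 (116 to 234). KLHL5 rose in intron 1 (33.2 to 121) and fell in introns 7 (93.3 to 28.8) and 12 (969 to 353). IGF1R, the receptor of insulin-like growth factors, fell in intron 15 (56.7 to 13.2) and rose in intron 20 (33.4 to 134), and MOCOS, of molybdenum cofactor metabolism, rose in intron 2 (39.2 to 119.9) and fell in intron 11 (244 to 54.9).

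Exons give the value in each library. Of the 474 listed exons, 29 lay in 19 of these genes, 22 lower and 7 higher after METTL3 siRNA. All 29 passed limma at an adjusted p under 0.05, beside 96.2% of all listed exons (65.6% called lower and 30.6% called higher), and in none did the groups overlap, beside 98.9% without overlap among all listed exons. The authors chose these exons from the same libraries, so these counts are no independent evidence of change. MYL6, a myosin light chain, is a gene whose transcripts differ in their last coding exon. Its exon 7 had 81.7 and 68.03 normalized counts with control siRNA and 23.4 and 17.6 in the METTL3 siRNA libraries, and exon 8 had 75.4 and 60.4 against 20.8 and 17.6. Both exons were lower in both knockdown libraries without overlap. The limma log2 difference was -1.82 ± 0.22 (SE), with a limma adjusted p of 0.00197 for exon 7, and -1.76 ± 0.20 (SE), with a limma adjusted p of 0.00174 for exon 8. Introns 5 (173 to 52.4) and 6 (315 to 152) of MYL6 were lower by the authors' means.

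ANTXR1 held exons of both directions. Exon 18 had 285 and 265 normalized counts with control siRNA and 1202 and 1142 after METTL3 siRNA. Exon 24 had 57.8 and 49.8 against 28.6 and 29.7, exon 25 128 and 119.8 against 87.7 and 83.5, exon 27 3594 and 3621 against 2243 and 2200.3 and exon 28 1143 and 1287 against 710.2 and 613. By number the higher exon precedes the 4 lower ones, and the groups overlapped in none. The limma log2 difference was 2.09 ± 0.15 (SE), with a limma adjusted p of 0.000837 for exon 18, and -0.88 ± 0.17 (SE), with a limma adjusted p of 0.00734 for exon 28. Exon 25, at -0.53 ± 0.15 (SE), with a limma adjusted p of 0.0227, lost its call without control replicate 1 or without either METTL3 siRNA replicate (limma adjusted p up to 0.0603) and in the fit with a replicate block. Exon 24 lost its call without METTL3 siRNA replicate 1 (limma adjusted p = 0.0515). After recentring on the median listed exon of each library the 4 lower exons had log2 differences from 0.0375 to 0.39. That median is of exons already listed as changed, most of them lower, so exons that fell little turn higher by construction. The lower direction given here is that of the deposited scale, and the sign change does not decide between the scales.

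MSI2, an RNA-binding protein of the Musashi family, gave a similar split. Exon 12 had 75.4 and 77.6 normalized counts with control siRNA and 324 and 349.9 after METTL3 siRNA, while exon 5 had 116 and 130.3 against 64.2 and 68.7 and exon 6 had 40.2 and 55.6 against 15.6 and 12.1. Exon 12 was higher and exons 5 and 6 were lower in every knockdown library. The limma log2 difference was 2.12 ± 0.15 (SE), with a limma adjusted p of 0.000772 for exon 12, and -1.71 ± 0.24 (SE), with a limma adjusted p of 0.00302 for exon 6, whose call was lost without METTL3 siRNA replicate 2 (limma adjusted p = 0.0544). Exon 5 went to 0.0377 on recentring. Introns 12 (58.6 to 147) and 13 (42.3 to 141) of MSI2 rose by the authors' means.

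PCDH7, a protocadherin of cell adhesion, had 1 lower and 2 higher exons beside 1 lower and 1 higher intron. Its exon 5 had 114 and 110.2 normalized counts with control siRNA and 43.4 and 38.05 after METTL3 siRNA, exon 6 3.77 and 2.87 against 14.8 and 27.8 and exon 7 10.1 and 5.75 against 32.99 and 45.5. The groups did not overlap in any of the 3 exons. The limma log2 difference of exon 5 was -1.44 ± 0.16 (SE), with a limma adjusted p of 0.00172. Exon 6 lost its call without control replicate 2 (limma adjusted p = 0.0594) and exon 7 without METTL3 siRNA replicate 1 (0.0514) or 2 (limma adjusted p = 0.0677). By the authors' means intron 1 of PCDH7 went from 166 to 61.9 and intron 3 from 16.5 to 119.

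In MARCHF6, BDP1 and CLIP4 an exon had 0 normalized counts in at least 1 library. MARCHF6, a ubiquitin ligase of the endoplasmic reticulum, had 59.1 and 74.7 normalized counts in exon 11 of the control libraries and 0 in both METTL3 siRNA libraries, with a limma log2 difference of -6.08 ± 0.18 (SE), with a limma adjusted p of 0.000142. Its introns 6 (188 to 377) and 7 (28.3 to 95.6) rose and intron 13 (1011 to 359) fell by the authors' means. Exon 27 of BDP1 had 25.1 and 12.5 in the control libraries and 0 and 0.928 after METTL3 siRNA, and its call was lost without METTL3 siRNA replicate 1 (limma adjusted p = 0.0508). Exon 24 of CLIP4, a microtubule-binding linker protein, had 0 and 4.79 against 46.9 and 46.4, and its call was lost without METTL3 siRNA replicate 1 (limma adjusted p = 0.129) or 2 (0.129). CLIP4 introns 13 (68.04 to 179), 14 (29.5 to 124) and 17 (74.1 to 225) rose by the authors' means.

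HNRNPLL, a regulator of exon exclusion, had 112 and 117 normalized counts in exon 11 of the control libraries and 35.6 and 41.8 after METTL3 siRNA, a limma log2 difference of -1.54 ± 0.16 (SE), with a limma adjusted p of 0.00164. Its other listed introns fell (intron 1 from 84.7 to 27.8, intron 8 from 188 to 77.2) and intron 13 rose from 26.1 to 133 by the authors' means. In KRT17, a keratin of epithelia, exon 6 had 71.7 and 362 in the control libraries, which stood far apart, and 2.60 and 1.86 after METTL3 siRNA. Its call was lost without METTL3 siRNA replicate 1 (limma adjusted p = 0.075) or 2 (0.0805). Opposite to that exon, both listed KRT17 introns rose. Its isoform ENST00000340966 rose as well (186 to 615 FPKM by the authors' values), as did KRT17-201, which the authors list under the pseudogene KRT17P1 (11.8 to 44.4 FPKM). KRT17 intron 3 carries the same authors' means (26.9 to 111) as intron 5 of KRT17P1, so KRT17 values are uncertain.

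**Figure D4:**
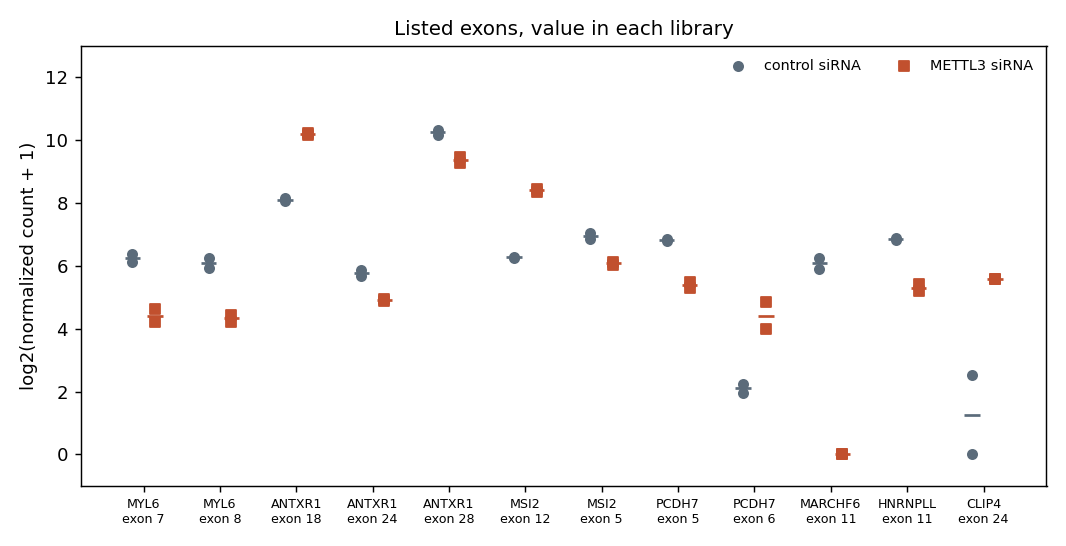
Value of 12 listed exons in each library as log2(normalized count + 1), circles for the 2 control and squares for the 2 METTL3 siRNA libraries, short lines for group means of the log values. ANTXR1 exon 18, MSI2 exon 12, PCDH7 exon 6 and CLIP4 exon 24 are higher after METTL3 siRNA and the others lower, with no overlap between groups; the lower ANTXR1 exons and MSI2 exon 5 change sign on recentring.

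Other listed exons were those of NASP, SPAG9, ANKRD10, VAPA, ZNF451, GDA, PCID2, SLC43A3 and MSANTD3. NASP, a histone chaperone, had 143 and 172 normalized counts in exon 18 of the control libraries and 50.4 and 60.3 after METTL3 siRNA, and its introns 6 (183 to 69.9) and 7 (993 to 362) fell by the authors' means. SPAG9, a scaffold of the JNK pathway, had 118 and 111 against 47.7 and 42.7 in exon 35, with introns 5 (185 to 60.4) and 6 (283 to 78.3) lower. ANKRD10 had 109 and 114 against 43.4 and 51.04 in exon 5, with introns 3 (635 to 312), 4 (2510.3 to 1171) and 5 (1619.5 to 785) lower. In these 3 genes the listed exon and introns were all lower as deposited. On recentring, SPAG9 exon 35 (limma log2 difference -0.41, limma adjusted p = 0.0701) and ANKRD10 exon 5 (-0.31, limma adjusted p = 0.149) lost their calls, and the intron median of ANKRD10 changed sign. VAPA, a tether of the endoplasmic reticulum, had 861 and 931 against 585 and 542 in exon 9, while introns 1 (41.2 to 117) and 2 (42.9 to 144) rose. ZNF451 had 215 and 205 against 110.3 and 115 in exon 9, with intron 15 lower (321 to 123) and intron 14 higher (22.8 to 95.1). GDA, the guanine deaminase, had 96.8 and 123 against 59.03 and 56.6 in exon 25, while introns 2 (51.1 to 218) and 11 (145 to 437) rose. The exons of VAPA, ZNF451 and GDA, like exon 17 of PCID2, were lower on the deposited scale but changed sign on recentring.

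PCID2, of the mRNA export machinery, had 69.2 and 72.8 against 40.8 and 34.3 in exon 17 and 52.8 and 72.8 against 29.5 and 28.8 in exon 18, while introns 6 (49.2 to 129.6) and 8 (57.9 to 177) rose by the authors' means. SLC43A3, a purine transporter, had 75.4 and 79.5 against 45.1 and 25.1 in exon 10, while introns 6 (47.2 to 123), 7 (34.6 to 107) and 10 (14.04 to 66.7) rose. MSANTD3 had 59.1 and 41.2 against 168 and 187 in exon 20, with introns 3 (156 to 339) and 13 (5.08 to 40.7) also higher. On recentring, PCID2 exon 18 (-0.15, limma adjusted p = 0.536) and SLC43A3 exon 10 (-0.26, limma adjusted p = 0.485) stayed lower but lost their calls. The calls of GDA exon 25 and PCID2 exon 18 were also lost without METTL3 siRNA replicate 1 (limma adjusted p = 0.073 and 0.0843) or 2 (0.0795 and 0.0881). That of SLC43A3 was lost without control replicate 1 or 2 (limma adjusted p = 0.138 and 0.153) and that of MSANTD3 without METTL3 siRNA replicate 2 (limma adjusted p = 0.0531).

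Isoforms of the same genes were listed for 82 of the 275 genes when matched by symbol. These 123 isoforms were lower in 78 cases (63.4%) and higher in 45, beside 53.3% lower over all 7251 listed isoforms. Matched by transcript identifier in GENCODE release 29, 111 isoforms belonged to 82 genes, 71 of them lower and 107 protein coding, 2 of retained-intron type and 2 subject to nonsense-mediated decay. Introns, exons and isoforms come from the same libraries, so their directions are given side by side and not as support for each other. Of 28 genes with 2 or more isoforms, 14 had isoforms of both directions.

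MYL6 was one of them: MYL6-202, the isoform with the block shown above, went from 257 to 56.5 FPKM and MYL6-201 from 124 to 327 FPKM by the authors' values. FOXM1, a transcription factor of the cell cycle, had FOXM1-201, with both blocks shown, at 12.2 to 5.80 FPKM, and FOXM1-203, without them, at 1.55 to 28.05 FPKM. Its introns 1 (78.9 to 23.3), 2 (148 to 54.4) and 3 (295 to 79.6) were lower by the authors' means. In both genes 1 form fell as the other rose. RREB1, a zinc finger factor downstream of Ras, had RREB1-204, with its block, at 3.90 to 9.97 FPKM, RREB1-202 at 2.83 to 0.544 FPKM and RREB1-201 at 2.82 to 0.174 FPKM, and introns 15 (32.4 to 143) and 16 (85.2 to 245) were higher. RAB1A, a GTPase of transport between endoplasmic reticulum and Golgi, had RAB1A-201 at 9.86 to 2.84 FPKM, RAB1A-202 at 0.543 to 8.97 FPKM and RAB1A-204 at 3.67 to 10.1 FPKM. CLIP4-201 went from 8.07 to 3.91 FPKM and CLIP4-202 from 0.248 to 3.05 FPKM, and the nuclear receptor forms NR2C1-202 from 9.59 to 4.55 FPKM and NR2C1-201 from 1.09 to 3.19 FPKM. PCID2-205 went from 4.67 to 1.36 FPKM and PCID2-203 from 2.48 to 5.26 FPKM.

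In other genes all listed forms had 1 direction. RAC1-202, the form with the RAC1b insertion of this small GTPase, went from 37.9 to 14.1 FPKM, and RAC1 introns 4 (362 to 156) and 5 (114 to 39.3) were lower by the authors' means. ANTXR1-203, whose coding region ends in the block shown, went from 11.8 to 48.2 FPKM, the second listed ANTXR1 form, ENST00000394317, from 1.70 to 45.95 FPKM, and MSI2-202 from 3.21 to 12.8 FPKM. BACE2-201 went from 2.00 to 10.7 FPKM and CUL4A-203 from 12.9 to 39.4 FPKM beside ENST00000375435 of CUL4A (4.19 to 20.6 FPKM), all in genes with higher introns. NASP-202 went from 22.7 to 8.54 FPKM, beside a second NASP form listed at 0 after METTL3 siRNA (0.131 to 0 FPKM), and SNRNP70-202 from 38.4 to 14.7 FPKM, both in genes with lower introns. PDE4DIP-201 (6.40 to 13.01 FPKM) and PDE4DIP-203 (7.32 to 17.6 FPKM) rose in a gene with lower introns, as did SPTAN1-203 (0.414 to 5.11 FPKM) of the membrane skeleton protein alpha-spectrin, whose introns 22 (165 to 73.7) and 23 (241 to 107) fell. SPTAN1-201, listed at 0 in the control, had 0 to 0.202 FPKM. The listed MICA isoform, ENST00000376219, also rose (65.4 to 140 FPKM), beside 4 lower introns.

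**Figure D5:**
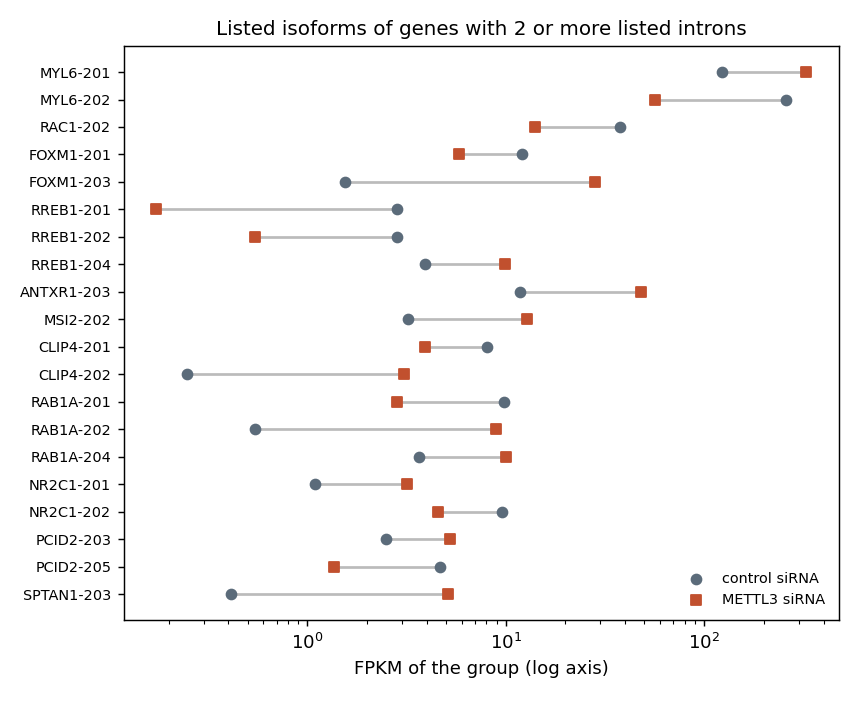
Authors' FPKM of 20 listed isoforms in the control (circles) and METTL3 siRNA (squares) group, log axis, 1 value per group and no replicates. MYL6, FOXM1, RREB1, CLIP4, RAB1A, NR2C1 and PCID2 each hold isoforms that rose and isoforms that fell.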

How the data were processed

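RNA of 4 HepG2 libraries was measured, 2 after METTL3 siRNA and 2 after scrambled siRNA, grouped by the siRNA label. Per the submitters' processing notes, which give no roles, the build was hg18 and the programs were DESeq 1.5.24, HTSeq, Cufflinks, Cuffdiff 1.0.3, TopHat 1.2.0 and CASAVA 1.8. Intron and gene tables hold, per the file headers, a normalized signal (read counts divided by a size factor and averaged over a group), a fold ratio or log2 fold change, and raw and adjusted p-values, all deposited by the authors. For isoforms each group has 1 deposited FPKM value; log2 fold changes were recomputed from it, because a placeholder stands where a group is 0. The exon signal, a normalized count per library, was deposited per the file headers, and the authors' exon fold changes, which are not ratios of these values, were not used. The tables leave out features whose authors' adjusted p is 0.05 or more and, for introns, changes under 2-fold, so library depth, unlisted introns and unlisted members of a gene list are unknown here.

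For introns, genes and isoforms the authors' calls were counted. For exons, limma 3.58.1 (R 4.3.3) was fitted to log2(value + 1) of all 474 rows, a scale that understates changes of low exons, with Benjamini-Hochberg adjustment; the step was tested on simulated data. An exact permutation test of 2 libraries against 2 cannot go below p = 0.333. Symbols were matched for 260 of 275 identifiers. Of 123 isoforms matched by symbol, 4 belong to another gene in GENCODE release 29 and were not named. Introns could not be given coordinates, since no hg18 annotation was used here. Of 16 lists of gene symbols, EXOC3 and C1QTNF3 matched patterns by their letters alone and were left out. MAPKAP1, also matched by its letters alone, was kept in the counts of kinases and phosphatases. Named genes were CD46 and MCTP2, the 12 with most introns (ties by smallest adjusted p), and the 8 highest and 8 lowest medians among genes with no intron at 0. They also included the 12 widest of both directions, the 6 with the highest intron mean, those with a listed exon, and up to 3 per list by adjusted p. Isoforms named were chosen after their values were seen. So were RAC1, FOXM1, RREB1, RAB1A, NPC1, RADX, L3MBTL3, PLEKHH2, ATP10B, PHACTR1, SLC47A2 and the genes set beside a list that does not match them. A few genes that this rule selects are not reported here. The set and lists were chosen with earlier results of these data known. Alternatives were other thresholds, levels, pseudocounts, recentring, matching, a replicate block and leaving out each library.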

Additional observations from a re-analysis of the deposited data

How the results depend on the processing

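A 4-fold minimum left 163 introns, 103 of them lower, and 1 intron per gene left 275, 198 lower, both by construction. Recentring on the median of all listed introns kept 248 introns, 63 lower, and turned the balance to higher ones by construction. By the same shift 64.0% of genes kept 1 direction. The medians used to recentre introns and exons come only from features already called changed. Sign changes on recentring therefore follow from that shift and are not measured against unchanged features. Isoforms with a pseudocount of 1 and a 2-fold minimum came to 66, 38 lower, as a pseudocount shrinks changes of low values by construction. Other thresholds, levels and matchings kept these counts within 1.5 times. Of the 29 exon calls, 19 were left at a mean of at least 50 normalized counts (19 tested), 16 after recentring and 21 to 27 without 1 library, where the lone library of a group is assumed to vary like the others.

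The replicate numbers were not shown to pair the libraries (correlation of same-number deviations 0.0012 over 474 exons). With the replicate block 28 of 29 exon calls were kept; exon 25 of ANTXR1 had a limma adjusted p of 0.0627.

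On recentring, exon differences became 0.25 for VAPA exon 9, 0.0216 for ZNF451 exon 9, 0.0111 for GDA exon 25, 0.00928 for PCID2 exon 17, 0.0377 for MSI2 exon 5 and 0.0561, 0.39, 0.22 and 0.0375 for ANTXR1 exons 24, 25, 27 and 28. Intron medians, lower as deposited, became 0.31 for ANKRD10, 0.0613 for C4BPB, 0.18 for CPS1, 0.0849 for ENSG00000172660, 0.0502 for MCTP1, 0.0746 for PDE4DIP, 0.0304 for PRPF3, 0.15 for PSMA3, 0.19 for SPTAN1, 0.21 for SRRM2, 0.0235 for SRSF6 and 0.0228 for ZBTB44. No other exon, and no other gene of 1 direction chosen by the naming rule, changed direction under the alternatives run. By the same subtraction the medians of HNRNPLL, IGF1R, MOCOS and CPSF6, with both directions, turn from lower to higher. So do those of RYR3, SRSF3, SRSF10, NONO, RRM1, ARGLU1 and CHTOP, named outside the rule.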

Other observations

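The share of higher introns was counted by chromosome after the values were seen, as a description with no test, beside 28.6% higher over the whole set. On chromosome 18, 12 of 17 introns in 7 genes (70.6%) were higher after METTL3 siRNA, and of the other 32 listed introns there 15 (46.9%) were higher. These genes include RMC1 and its opposite-strand neighbour NPC1, RAB31 and VAPA, all higher, and SS18, a subunit of a chromatin remodeling complex, which fell in introns 3 (252 to 62.9), 4 (487 to 182) and 9 (285 to 114) by the authors' means. On chromosome 9, 12 of 22 introns were higher, and on chromosome 13, 12 of 23, including the overlapping pair CUL4A and PCID2. Of the other listed introns, 25 of 71 (35.2%) on chromosome 9 and 12 of 32 (37.5%) on chromosome 13 were higher. On chromosome 7 none of 23 introns in 10 genes was higher, while 31 of the other 95 listed introns there were. On chromosome 19 none of 10 introns in 5 genes was higher, while 24 of the other 71 were.

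Several genes outside the rule for named genes also held large changes, picked after their values were seen. OSMR, the receptor of oncostatin M, rose in introns 7 (269 to 656), 9 (73.3 to 280.5) and 11 (41.9 to 499) by the authors' means. COG4, of Golgi tethering, fell in introns 12 (346 to 54.5) and 13 (406 to 49.6). EWSR1, an RNA-binding protein of the FET family, fell in introns 9 (2074 to 561), 10 (1387 to 431) and 11 (511 to 165). RYR3, a calcium release channel, fell in introns 97 (155 to 62.7), 101 (166 to 67.2), 102 (106 to 40.7) and 105 (154 to 63.8). VEGFA, the angiogenic growth factor, fell in introns 4 (221 to 36.4) and 6 (79.9 to 23.3). In each of these genes the introns had 1 direction, and the median of RYR3 changes sign on recentring.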
